A study of Mus musculus with 4 samples.

Results

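The unfolded protein response and the integrated stress response were examined in Npac KO mouse ES cells through 38 genes, out of 56748 genes listed in the deposited tables. These genes were chosen by known function, with earlier results of these data known. All 38 passed the filter on low counts that left 18157 genes to be tested. They comprise an ATF4 branch of 13 genes, an endoplasmic reticulum (ER) branch of 18 genes (11 chaperones and folding factors, and 7 factors of ER-associated degradation), and 7 sensors and upstream regulators. The RNA-seq data cover a mouse ES cell line, E14, in 2 libraries of WT cells (WT1 and WT2) and 2 libraries of Npac KO cells (KO1 and KO2), each KO library from a CRISPR-Cas9 knockout line. By the study's methods, E14 cells were grown without feeder cells in medium with serum and LIF, and knockout cells were selected with puromycin after electroporation of Cas9 and guide plasmids. No source says that WT1 and WT2 were separate cultures, so p-values measure the spread between these libraries, which may be technical for WT.

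The ER folds secreted and membrane proteins. When unfolded proteins accumulate there, 3 sensors in its membrane respond: PERK (Eif2ak3) phosphorylates the translation factor eIF2α, IRE1 (Ern1) splices Xbp1 mRNA, and ATF6 is cut to release a transcription factor. XBP1 and ATF6 are known to induce ER chaperones and degradation factors. The integrated stress response joins PERK with the kinases GCN2 (Eif2ak4), which senses amino acid shortage, and HRI (Eif2ak1), which senses heme shortage and other stresses. Phosphorylated eIF2α lowers general protein synthesis but favors translation of Atf4 mRNA, and the ATF4 protein induces genes of amino acid supply, redox balance, feedback and cell death. Gene counts show neither eIF2α phosphorylation, ATF4 protein nor Xbp1 splicing.

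Library totals lay between 15850805 and 16965120 reads. Expression is given as CPM, the reads of a gene relative to the TMM-scaled total of its library. The log2 change is that of Npac KO over WT cells. Its standard error (SE) was derived from the test, as its absolute value over the square root of the F statistic. Genes counted as up-regulated or down-regulated changed more than 1.5-fold and had a p under 0.05 in edgeR's quasi-likelihood test after Benjamini-Hochberg adjustment over all genes tested. The targeted gene Glyr1 (Npac) was at 259 and 178 CPM in WT1 and WT2 and at 47.9 and 51.3 CPM in KO1 and KO2, so both KO libraries matched their labels. All 11 mES cell markers examined were detected in the 4 libraries, with a summed level of 6504 to 8194 CPM in WT cells and 5393 to 5657 CPM in Npac KO cells, and 1 was up-regulated and 2 were down-regulated. The 11 endoderm markers summed to 118 to 125 CPM in WT cells and 218 to 274 CPM in Npac KO cells, with Foxa2, Afp and Ttr at 3 reads or fewer in each library. The 8 trophoblast markers summed to 105 to 113 CPM and 240 to 267 CPM, with Cdx2 and Elf5 not tested for low counts, the 9 neural markers to 92.2 to 103 CPM and 111 to 121 CPM with Dcx at 0, and the 10 fibroblast markers to 98.3 to 106 CPM and 56.5 to 66.2 CPM with Col3a1, Dcn and S100a4 at 0. Among these other markers, Lamb1 (endoderm), Tfap2c and Krt18 (trophoblast), Olig2 (neural) and Col1a1 (fibroblast) were up-regulated, and Sox7 (endoderm), Sox1 (neural) and Fbn1 (fibroblast) were down-regulated. Over all genes tested, 11% were up-regulated and 10.7% were down-regulated. KO1 and KO2 lay above the WT pair for 5 of the 6 trophoblast markers tested, an order that 33.2% of all genes tested had. Olig2 had 2 and 3 reads in WT1 and WT2 and 227 and 210 reads in KO1 and KO2. The part of these differences in the results was not tested, and in bulk RNA fewer cells of a type and less RNA per cell cannot be told apart.

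Of the 38 stress response genes, 7 were higher in Npac KO cells by this test, 16 were lower and 15 did not pass. The background was 11% of all genes tested up-regulated and 10.7% down-regulated. The 16 down-regulated genes comprised 12 of the 13 genes of the ATF4 branch, 3 degradation factors and 1 upstream regulator. The 7 up-regulated genes were all ER chaperones or folding factors. The median log2 change was -2.18 in the ATF4 branch, 0.79 in the chaperones, -0.59 in the degradation factors and -0.11 in the sensors and upstream regulators, against 0.0015 over all genes tested.

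**Figure D1:**
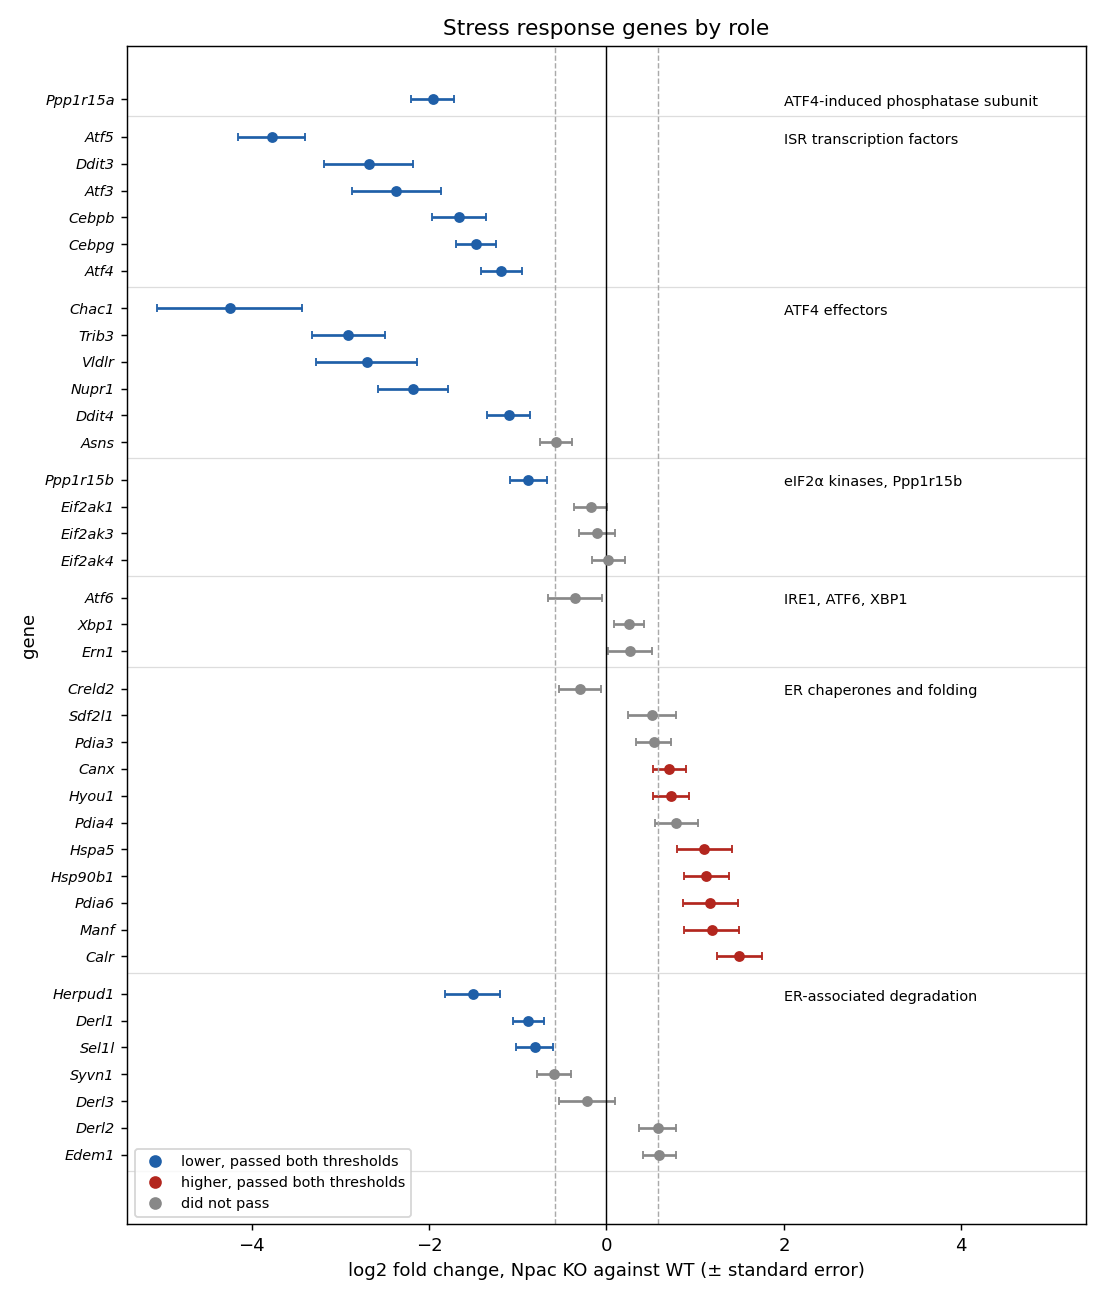
The log2 fold change of Npac KO against WT cells on the x axis is plotted for each of the 38 genes on the y axis, grouped by role, with bars of 1 standard error and dashed lines at a fold change of 1.5. All 13 genes of the ATF4 branch lie left of 0 (median -2.18), and 10 of 11 chaperones lie right of it (median 0.79).

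The ATF4 branch was lower in Npac KO cells throughout. KO1 and KO2 were each lower than WT1 and WT2 for all 13 genes, an order that 32.5% of all genes tested had. The median log2 change of the branch was -1.67 without WT1, -2.27 without WT2, -1.79 without KO1 and -2.85 without KO2. The sum over the branch was 2767 CPM in WT1, 2245 CPM in WT2, 840 CPM in KO1 and 1071 CPM in KO2.

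Atf4 (ENSMUSG00000042406, chromosome 15), the transcription factor that gives the branch its name, was at 581 CPM in WT1, 412 CPM in WT2, 195 CPM in KO1 and 242 CPM in KO2. The groups did not overlap, and the KO mean of 218 ± 33.2 CPM (SD, n = 2) was 44% of the WT mean of 497 ± 119 CPM (SD, n = 2). This was a log2 change of -1.18 ± 0.23 (SE, adjusted p = 0.0125). Without KO1 the call was lost, at a log2 change of -1.04.

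The other transcription factors of the response were all down-regulated. Atf5, a factor related to ATF4 whose translation is likewise favored under stress, was at 151 and 121 CPM in WT1 and WT2 and at 6.05 and 13.8 CPM in KO1 and KO2. The KO mean was 7.29% of the WT mean, with a log2 change of -3.77 ± 0.38 (SE, adjusted p = 0.00133). Ddit3, which encodes the pro-apoptotic factor CHOP, was at 127, 208, 12.5 and 39.7 CPM in WT1, WT2, KO1 and KO2. Its 2 KO libraries differed 1.66 on the log2 scale, and both lay below WT, with a log2 change of -2.68 ± 0.50 (SE, adjusted p = 0.0110). It was -2.09 without KO1 and -3.72 without KO2. Atf3, a stress-induced factor, was at 28.4, 19.3, 2.25 and 6.93 CPM in the same order, a log2 change of -2.37 ± 0.50 (SE, adjusted p = 0.0158), which was -1.79 without KO1 and -3.39 without KO2. Atf5 was at -4.48 without KO2.

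The C/EBP partners of ATF4 were down-regulated as well. Cebpb was at 34.6 and 21.6 CPM in WT1 and WT2 and at 9.52 and 8.20 CPM in KO1 and KO2, a log2 change of -1.66 ± 0.30 (SE, adjusted p = 0.0101). Cebpg, which forms dimers with ATF4, was at 124, 106, 34.5 and 48.4 CPM in WT1, WT2, KO1 and KO2, a log2 change of -1.47 ± 0.22 (SE, adjusted p = 0.00557). Neither gene had overlapping groups. Atf5, Ddit3 and Cebpb overlap genes on the other strand, and the strand setting of the counting is not given in the sources used here. Nup62, which overlaps Atf5, had 3466 to 3889 reads in the 4 libraries, and Mars1, which overlaps Ddit3, had 4359 to 5107 reads. Peds1, which overlaps Cebpb, had 464 and 914 reads in WT1 and WT2 and 418 and 559 reads in KO1 and KO2.

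Among the effectors, Chac1 showed the largest fold change of the 38 genes. Chac1 (ENSMUSG00000027313, chromosome 2), which degrades glutathione, was at 234 CPM in WT1, 136 CPM in WT2, 1.80 CPM in KO1 and 17.5 CPM in KO2. The KO1 value stands on 28 reads and the KO2 value on 303 reads, so the KO libraries differed from each other by 3.28 on the log2 scale. The KO mean was 5.22% of the WT mean, and the log2 change of -4.25 ± 0.82 (SE, adjusted p = 0.0121) ranged from -6.66 without KO2 to -3.41 without KO1.

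Trib3, a pseudokinase that restrains ATF4 and AKT signaling, was at 258 and 151 CPM in WT1 and WT2 and at 16.9 and 37.4 CPM in KO1 and KO2. This gave a log2 change of -2.91 ± 0.41 (SE, adjusted p = 0.00453). Nupr1, a small stress-induced chromatin protein, was at 146, 89.7, 16.1 and 35.6 CPM in WT1, WT2, KO1 and KO2, a log2 change of -2.18 ± 0.39 (SE, adjusted p = 0.00963). For both genes KO1 was the lowest library and WT1 the highest, and without KO2 the log2 changes were -3.58 for Trib3 and -2.85 for Nupr1.

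Vldlr, a lipoprotein receptor induced through ATF4, was at 54.9 CPM in WT1, 17.2 CPM in WT2, 3.60 CPM in KO1 and 7.40 CPM in KO2. WT2 lay 1.67 below WT1 on the log2 scale, but the groups did not overlap. The log2 change was -2.70 ± 0.57 (SE, adjusted p = 0.0161), and it was -1.67 without WT1, -3.31 without WT2 and -3.30 without KO2. The call was lost with limma-trend on the deposited FPKM values, at an adjusted p of 0.0538.

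Ddit4, an inhibitor of mTORC1 that is also a target of p53, was at 239, 265, 90.6 and 144 CPM in WT1, WT2, KO1 and KO2. Its log2 change was -1.10 ± 0.25 (SE, adjusted p = 0.0191), and the call was lost without KO1, at -0.82. Asns, the asparagine synthetase, was the member of the branch that did not pass. It was at 678 and 621 CPM in WT1 and WT2 and at 426 and 448 CPM in KO1 and KO2, with a log2 change of -0.57 ± 0.18 (SE, adjusted p = 0.0572). Its groups did not overlap either.

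Ppp1r15a encodes GADD34, the phosphatase subunit that ATF4 induces to dephosphorylate eIF2α. It was at 113 and 76.2 CPM in WT1 and WT2 and at 25.8 and 22.9 CPM in KO1 and KO2. The KO libraries were close to each other and below both WT libraries, with a log2 change of -1.96 ± 0.24 (SE, adjusted p = 0.00290).

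**Figure D2:**
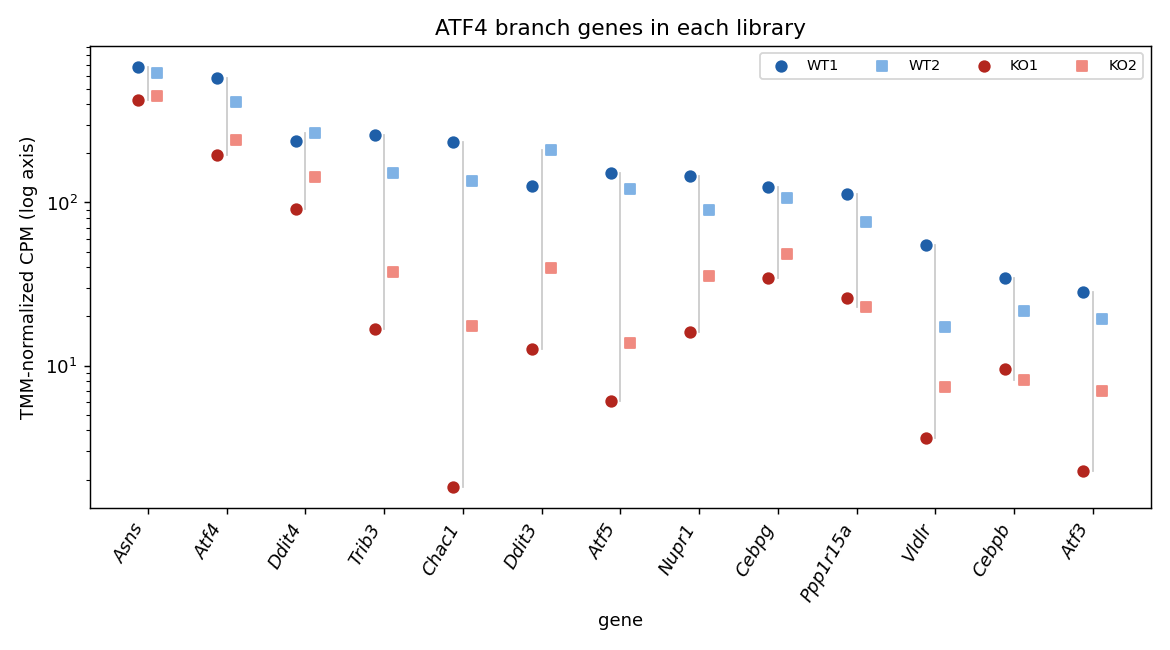
The TMM-normalized CPM on a log y axis is plotted for each gene of the ATF4 branch on the x axis, in each of the 4 libraries (circles for WT1 and KO1, squares for WT2 and KO2, gray lines joining the lowest and the highest). For all 13 genes KO1 and KO2 lie below the WT pair, and the KO libraries are furthest apart for Chac1, at 1.80 and 17.5 CPM.

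Levels between genes were compared per length, as the mean FPKM that the authors deposited. In WT cells Asns (236 FPKM), Atf4 (209 FPKM) and Ddit4 (142 FPKM) had the highest levels of the 38 genes, and Chac1 was the fifth, at 112 FPKM. In Npac KO cells Asns was at 158 FPKM, Atf4 at 91.6 FPKM and Ddit4 at 66.0 FPKM, and Chac1 was at 5.80 FPKM. Calr was the fourth in WT cells, at 131 FPKM, and the highest of all in Npac KO cells, at 367 FPKM. Vldlr was the lowest of the 38 genes in both, at 3.55 and 0.54 FPKM.

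ATF4 with a C/EBP partner binds the C/EBP-ATF response element (CARE), searched here as the letters TGATGNAA on both strands. RefSeq windows of 300 bases, from 250 before to 50 after a start site (build GRCm38.p6), were found for 33 of the 38 genes and for all 13 of the ATF4 branch. The letters were present in 6 of these 13 genes (46.2%), namely Asns, Atf3, Chac1, Nupr1, Trib3 and Vldlr, in none of the 9 chaperones with a window, and in 4.51% of the 27025 genes with a window. Of the 6 genes with the letters 5 were down-regulated, and of the 7 without them 7 were. The following stretches show where the letters lie in 5 of the 6 genes, on the strand of the gene, with the match in capitals and 25 bases on either side. Where the match is on the other strand, the capitals are its reverse complement. A match describes letters, not a bound site.
Chac1, chr2:119351024-119351081, plus strand: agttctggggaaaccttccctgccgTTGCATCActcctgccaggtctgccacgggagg
Nupr1, chr7:126625548-126625605, minus strand: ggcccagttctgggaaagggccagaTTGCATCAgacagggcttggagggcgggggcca
Vldlr, chr19:27216795-27216852, plus strand: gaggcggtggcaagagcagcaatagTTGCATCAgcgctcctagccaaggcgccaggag
Atf3, chr1:191183411-191183468, minus strand: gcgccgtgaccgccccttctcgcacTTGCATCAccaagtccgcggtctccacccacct
Asns, chr6:7693200-7693257, minus strand: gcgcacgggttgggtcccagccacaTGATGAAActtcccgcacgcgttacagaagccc

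The first base of the match lies 193 bases before the start site in Chac1, 110 bases in Nupr1 and in Atf3, 200 bases in Vldlr and 23 bases in Asns. In Trib3 it lies 14 bases after the start site. The same 8 letters, TTGCATCA, stand in Chac1, Nupr1, Vldlr and Atf3, whereas Trib3 has TTACATCA and Asns has TGATGAAA. Whether the letters go with the size of the change was not tested, and Atf5, with a log2 change of -3.77, has no match.

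No sensor passed the test at the RNA level. Eif2ak1 was at 50.6 and 51.9 CPM in WT1 and WT2 and at 48.0 and 42.8 CPM in KO1 and KO2, a log2 change of -0.18. Eif2ak3 (PERK) and Eif2ak4 (GCN2) had log2 changes of -0.11 and 0.02 with overlapping groups. None of these 3 kinases passed the test, with adjusted p of 0.528, 0.730 and 0.951.

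Ern1 (IRE1) was at 44.8 and 29.3 CPM in WT1 and WT2 and at 40.6 and 48.2 CPM in KO1 and KO2, a log2 change of 0.26 (adjusted p = 0.484). Xbp1, the transcription factor whose mRNA IRE1 splices, was at 69.2, 69.6, 81.3 and 84.2 CPM in WT1, WT2, KO1 and KO2, a log2 change of 0.25 (adjusted p = 0.321). Atf6 was at 83.7, 42.5, 48.6 and 50.3 CPM in the same order, so WT1 was high and WT2 was the lowest library. None of them passed the test. Ern1 and Xbp1 lie on chromosome 11, where the median of all genes was 0.48 and 0.47 above WT on the log2 scale in KO1 and KO2. Once the median of each chromosome was removed, their log2 changes were -0.21 and -0.22.

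Ppp1r15b, the constitutive counterpart of Ppp1r15a among the subunits that bring a phosphatase to eIF2α, was the down-regulated gene among the upstream regulators. It was at 290 and 210 CPM in WT1 and WT2 and at 136 and 135 CPM in KO1 and KO2, without overlap. The log2 change was -0.88 ± 0.21 (SE, adjusted p = 0.0232), and the call was lost without KO1 or without KO2, at -0.89 and -0.86.

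Most ER chaperones and folding factors were higher in Npac KO cells. KO1 and KO2 were each higher than WT1 and WT2 for 10 of these 11 genes, against 33.2% of all genes tested. Of the 11 genes 7 were up-regulated, against 11% of all genes tested. The sum over the 11 genes was 2050 CPM in WT1, 3046 CPM in WT2, 4840 CPM in KO1 and 5172 CPM in KO2.

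Hspa5 (ENSMUSG00000026864, chromosome 2) encodes BiP, the Hsp70 chaperone of the ER that also holds the sensors inactive. It was at 198 CPM in WT1, 396 CPM in WT2, 633 CPM in KO1 and 644 CPM in KO2. The groups did not overlap, although WT2 was 1.00 above WT1 on the log2 scale and the KO libraries differed by 0.02. Its log2 change was 1.10 ± 0.31 (SE, adjusted p = 0.0411), and it was 0.66 without WT1. Hsp90b1 (GRP94), the ER form of Hsp90, was at 257, 416, 693 and 774 CPM in WT1, WT2, KO1 and KO2, a log2 change of 1.12 ± 0.26 (SE, adjusted p = 0.0205).

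Calr (ENSMUSG00000003814, chromosome 8), the calcium-binding lectin that folds glycoproteins, had the largest log2 change above 0 of the 38 genes before chromosome medians were removed. It was at 294 and 464 CPM in WT1 and WT2 and at 1003 and 1133 CPM in KO1 and KO2, and the KO mean was 2.82-fold the WT mean. Its log2 change was 1.495 ± 0.25 (SE, adjusted p = 0.00815). The median of all genes on chromosome 8 was 0.48 and 0.51 above WT on the log2 scale in KO1 and KO2, and Calr remained up-regulated with the chromosome medians removed, at 1.00 (adjusted p = 0.0307). It was then below Manf (1.37), Pdia6 (1.25), Hsp90b1 (1.18) and Hspa5 (1.13).

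Canx, the membrane-bound partner of Calr, was at 485 and 528 CPM in WT1 and WT2 and at 810 and 848 CPM in KO1 and KO2. It had a log2 change of 0.71 ± 0.18 (SE, adjusted p = 0.0303). Canx lies on chromosome 11, and its call was lost with the chromosome medians removed, at 0.24 (adjusted p = 0.409).

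The remaining 3 up-regulated genes also had KO1 and KO2 above the WT pair. Pdia6, a disulfide isomerase, was at 162 and 323 CPM in WT1 and WT2 and at 546 CPM in both KO1 and KO2, a log2 change of 1.17 ± 0.31 (SE, adjusted p = 0.0340). Manf, a secreted protein that resides in the ER and protects stressed cells, was at 34.7, 69.9, 115 and 123 CPM in WT1, WT2, KO1 and KO2, a log2 change of 1.19 ± 0.31 (SE, adjusted p = 0.0325). Without WT1 the log2 changes of Pdia6 and Manf were 0.73 and 0.74, and without WT2 they were 1.75 and 1.78. Manf overlaps Dcaf1 on the other strand, which had 1573 and 1275 reads in WT1 and WT2 and 2338 and 2161 reads in KO1 and KO2. It also overlaps Rbm15b on its own strand, which had 1220, 1160, 710 and 810 reads in WT1, WT2, KO1 and KO2. Hyou1, an ER chaperone and exchange factor for BiP, was at 163, 219, 322 and 314 CPM in WT1, WT2, KO1 and KO2. Its log2 change was 0.73 ± 0.20 (SE, adjusted p = 0.0395), and among the fits that left out 1 library it was called in 1 of 4, that without WT2.

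The other 4 folding factors did not pass. The disulfide isomerase Pdia4 was at 82.4, 131, 173 and 196 CPM in WT1, WT2, KO1 and KO2, a log2 change of 0.79 (adjusted p = 0.0542), and was called by DESeq2 (adjusted p = 0.0243). The disulfide isomerase Pdia3 had a log2 change of 0.53 (adjusted p = 0.0872) and Sdf2l1, a BiP cofactor, 0.51 (adjusted p = 0.204), both with the KO libraries above the WT libraries. Creld2, a folding factor induced by ER stress, was the one whose groups overlapped. It was at 74.8 and 115 CPM in WT1 and WT2 and at 73.0 and 81.4 CPM in KO1 and KO2, a log2 change of -0.30 (adjusted p = 0.392).

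Leaving out a KO library lowered the number of calls in the ER branch and also over all genes tested. Calr and Pdia6 kept their calls in both fits, and Canx and Hyou1 lost theirs in both. Hspa5, Hsp90b1 and Manf lost theirs without KO2 but not without KO1. Their log2 changes without KO2 were 1.11, 1.06 and 1.15. The median log2 change of the chaperones was 0.86 without KO1 and 0.77 without KO2, against 0.79 with all libraries. The median log2 change of the 18 genes of the ER branch ranged from 0.49 to 0.73 over the 4 fits without 1 library.

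**Figure D3:**
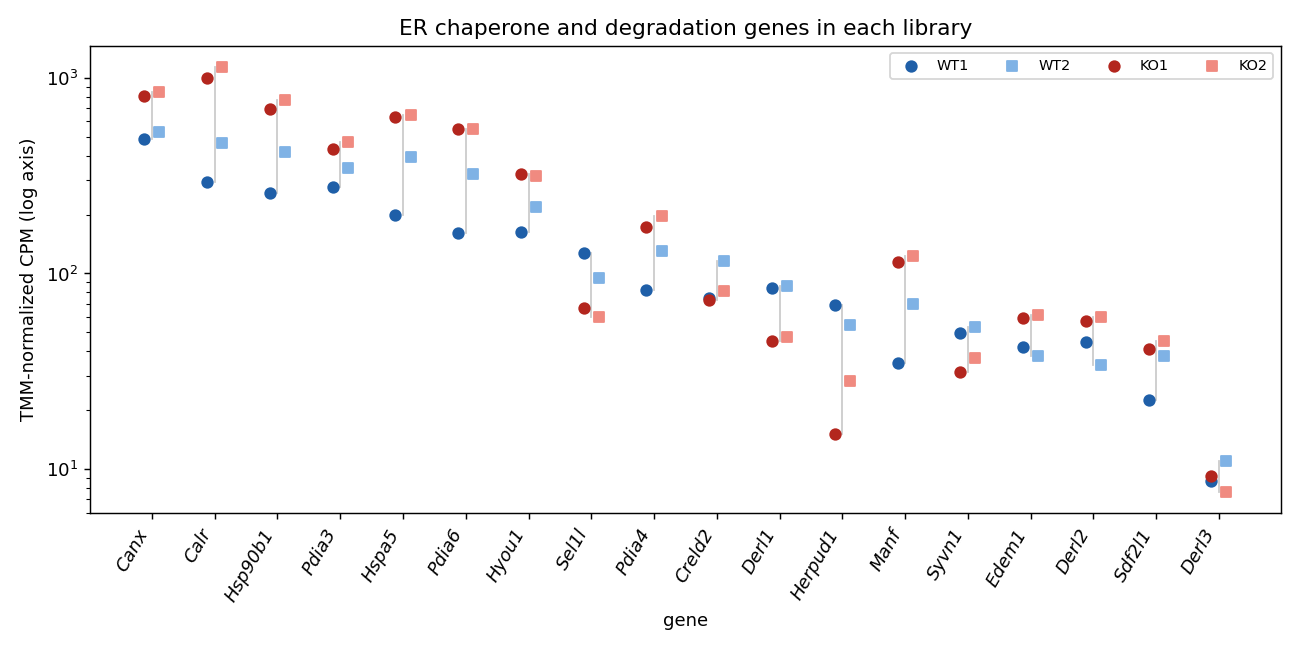
The TMM-normalized CPM on a log y axis is plotted for each gene of the ER branch on the x axis, in each of the 4 libraries (circles for WT1 and KO1, squares for WT2 and KO2, gray lines joining the lowest and the highest). Calr rises from 294 and 464 CPM in WT to 1003 and 1133 CPM in KO, whereas Herpud1 falls from 68.7 and 54.5 CPM to 15.1 and 28.2 CPM.

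ATF6 with NF-Y binds the ER stress response element (ERSE), searched as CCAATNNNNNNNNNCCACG on both strands. Of the 9 chaperones with a RefSeq window, 6 (66.7%) held these letters, namely Calr, Canx, Creld2, Hsp90b1, Hspa5 and Pdia6. They were present in none of the 13 genes of the ATF4 branch and in 0.137% of all genes with a window. Among the further genes described below, 1 of 27 other ER chaperones and folding factors with a window held them (3.7%), namely Ero1b. Dnajc3, 1 of 12 other genes of eIF2α control with a window, held them as well and was down-regulated. Of the 6 chaperones with the letters 5 were up-regulated, all but Creld2, and the 3 without them, Pdia3, Pdia4 and Sdf2l1, did not pass. This split depended on the setting. With the chromosome medians removed, Canx lost its call (0.24, adjusted p = 0.409) and Pdia4 was up-regulated (0.89, adjusted p = 0.0388). Whether the letters go with the change was not tested. Windows for Hyou1 and Manf were not analysed here. The stretches of the 5 up-regulated genes follow in the same way, with the match in capitals.
Hspa5, chr2:34772000-34772068, plus strand: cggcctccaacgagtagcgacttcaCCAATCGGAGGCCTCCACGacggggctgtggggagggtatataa
Calr, chr8:84847050-84847118, minus strand: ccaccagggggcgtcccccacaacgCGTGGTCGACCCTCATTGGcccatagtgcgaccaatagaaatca
Pdia6, chr12:17266466-17266534, plus strand: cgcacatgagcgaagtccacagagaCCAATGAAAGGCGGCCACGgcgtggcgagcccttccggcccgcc
Canx, chr11:50325775-50325843, minus strand: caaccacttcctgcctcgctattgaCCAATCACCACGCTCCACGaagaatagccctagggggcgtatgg
Hsp90b1, chr10:86705508-86705576, minus strand: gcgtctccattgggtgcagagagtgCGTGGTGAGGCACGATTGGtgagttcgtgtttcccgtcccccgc

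The first base of the match lies 65 bases before the start site in Hspa5, 162 bases in Calr, 98 bases in Pdia6 and 145 bases in Canx. Hsp90b1 holds 2 matches, and the one shown lies 107 bases before the start site. Hspa5 also holds the letters TGACGTG, those of the UPR element (UPRE) that XBP1 and ATF6 bind, 157 bases before the start site, as do 2.22% of all genes with a window.

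Of the 7 genes of ER-associated degradation, which carry misfolded proteins back to the cytosol for destruction, 3 were down-regulated and 0 up-regulated. Over all genes tested, 10.7% were down-regulated and 11% up-regulated. Herpud1 (ENSMUSG00000031770, chromosome 8), a membrane scaffold of the degradation complex, was at 68.7 CPM in WT1, 54.5 CPM in WT2, 15.1 CPM in KO1 and 28.2 CPM in KO2. The KO mean was 35.1% of the WT mean, and the groups did not overlap. The log2 change was -1.51 ± 0.31 (SE, adjusted p = 0.0147), and it was -2.01 with the chromosome medians removed.

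Sel1l, the adaptor of the ubiquitin ligase HRD1, was at 127 and 95.0 CPM in WT1 and WT2 and at 66.6 and 60.2 CPM in KO1 and KO2, a log2 change of -0.81 ± 0.21 (SE, adjusted p = 0.0299). The Sel1l call was lost with limma-trend on FPKM, at an adjusted p of 0.0530. Derl1, a channel protein of the complex, was at 84.5 and 86.5 CPM in WT1 and WT2 and at 45.4 and 47.3 CPM in KO1 and KO2. Its log2 change was -0.88 ± 0.18 (SE, adjusted p = 0.0135), with both pairs close together. Leaving out a KO library lowered the number of calls here and also over all genes tested. Sel1l and Derl1 lost their calls in both fits, at -0.89 and -0.86 without KO1 and at -0.72 and -0.90 without KO2. Herpud1 lost its call without KO1, at -1.13, and was at -2.02 without KO2. Without WT1 the log2 changes of the degradation factors Syvn1, Edem1 and Derl2 were -0.67, 0.65 and 0.76. That of the folding factor Creld2 was then -0.61.

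Syvn1 (HRD1 itself) was at 49.6 and 53.2 CPM in WT1 and WT2 and at 31.4 and 36.8 CPM in KO1 and KO2, and did not pass, with a log2 change of -0.59 (adjusted p = 0.0649). Syvn1 overlaps Mrpl49 on the other strand, which had 1064 to 1486 reads in the 4 libraries. Edem1, which recognizes misfolded glycoproteins, had a log2 change of 0.60 (adjusted p = 0.0546), and 0.70 with the chromosome medians removed (adjusted p = 0.0368). Its KO1 and KO2 values lay above the WT pair. Derl2 had the same order, with a log2 change of 0.58 (adjusted p = 0.0836), and 0.10 with the median of chromosome 11, where it lies, removed. Derl2 overlaps Mis12 on the other strand, which had 613, 844, 1067 and 1300 reads in WT1, WT2, KO1 and KO2. Derl3 was low, at 7.63 to 11.0 CPM in the 4 libraries, with a log2 change of -0.22 (adjusted p = 0.647) and overlapping groups.

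Herpud1 was the gene of the 33 with a window that held both the CARE letters and those of a second ER stress element, ERSE-II (ATTGGNCCACG), which 0.0444% of all genes with a window held. Derl3 and Syvn1 held the ERSE letters. Sel1l, also down-regulated, held no CARE letters, and neither did the other degradation factors with a window. The Herpud1 stretches are shown because both elements stand in 1 window.
Herpud1, chr8:94386292-94386349, plus strand: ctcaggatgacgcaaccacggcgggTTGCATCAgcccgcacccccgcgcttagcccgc
Herpud1, chr8:94386352-94386412, plus strand: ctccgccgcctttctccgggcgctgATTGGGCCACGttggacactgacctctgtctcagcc

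The first base of the CARE match lies 112 bases before the start site of Herpud1 and that of the ERSE-II match 52 bases before it.

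Set side by side within each library, the ER branch summed to 2475 CPM in WT1, 3418 CPM in WT2, 5124 CPM in KO1 and 5473 CPM in KO2. Most of this was the 11 chaperones, at 4840 and 5172 CPM in KO1 and KO2. The 7 degradation factors went the other way, at 425 and 372 CPM in WT1 and WT2 and 284 and 301 CPM in KO1 and KO2. The ratio of the ER branch to the ATF4 branch was 0.894 and 1.52 in WT1 and WT2 and 6.10 and 5.11 in KO1 and KO2. WT1 was the library in which the ATF4 branch summed to more than the ER branch. CPM is not scaled by gene length, so the ratio compares libraries and not the levels of the 2 branches. The ER sum includes Calr and Canx, at 1003 and 810 CPM in KO1. They lie on chromosomes 8 and 11, where the median of all genes was 0.48 above WT on the log2 scale in KO1. The part of these shifts in the sums was not tested.

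**Figure D4:**
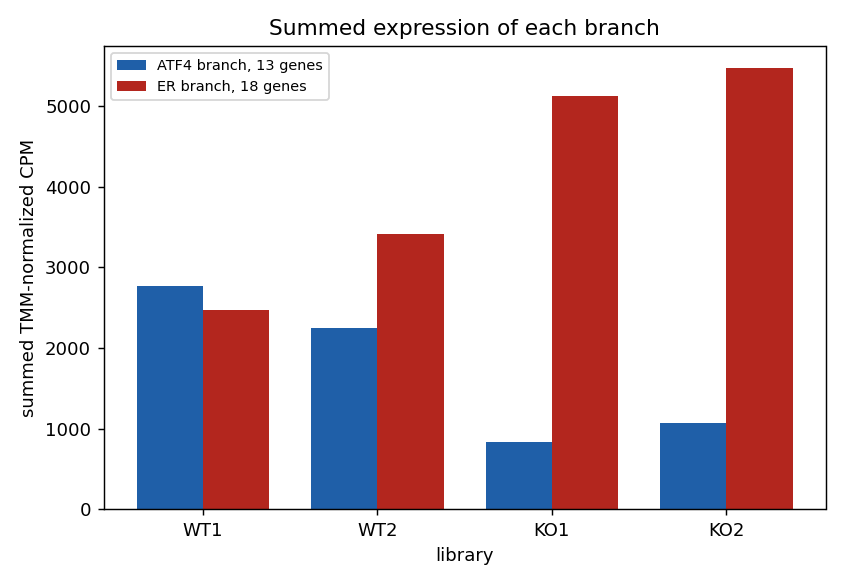
Bars on a y axis from 0 give the summed TMM-normalized CPM of the 13 genes of the ATF4 branch and of the 18 genes of the ER branch in each library on the x axis. The ATF4 branch drops from 2767 and 2245 CPM in WT to 840 and 1071 CPM in KO, while the ER branch is at 2475 and 3418 CPM in WT and at 5124 and 5473 CPM in KO. The 7 degradation factors of the ER branch, not drawn apart, sum to 425 and 372 CPM in WT and 284 and 301 CPM in KO.

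The 2 WT libraries differed from each other in these genes. WT2 was below WT1 for 11 of the 13 genes of the ATF4 branch and above it for all 11 chaperones, so that WT2 lay on the KO side of WT1 in both. The median absolute difference between WT2 and WT1 was 0.57 on the log2 scale in the ATF4 branch and 0.66 in the chaperones, against 0.35 over all genes tested. The KO libraries differed by a median of 0.94 in the ATF4 branch and 0.12 in the chaperones, against 0.21 over all genes. KO2 was above KO1 for 11 of the 13 genes of the ATF4 branch, and KO1 was the lowest library for 11. The gap between the WT libraries exceeded the difference between KO and WT for 0 of the 13 genes of the ATF4 branch, for 3 of the 18 genes of the ER branch and for 4 of the 7 sensors and upstream regulators. The effect of these WT differences on the results was not tested beyond leaving out each library.

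**Figure D5:**
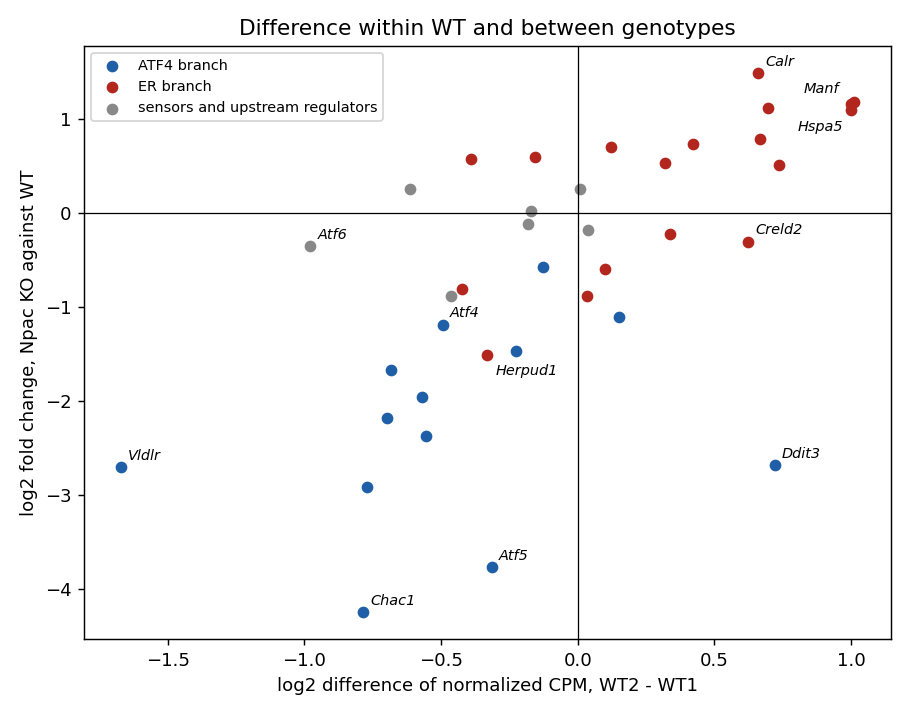
The log2 fold change of Npac KO against WT on the y axis is plotted against the log2 difference between WT2 and WT1 on the x axis, with 1 point for each of the 38 genes colored by branch. The axes share the WT libraries. The 11 chaperones lie right of 0 on the x axis and 11 of 13 genes of the ATF4 branch lie left of it.

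The same pathways were then followed in 138 further genes, of which 137 were tested, with 10 of them up-regulated and 29 down-regulated, beside 11% and 10.7% of all genes tested. Of 30 other targets of ATF4, mainly of amino acid uptake, amino acid synthesis and tRNA charging, 14 were down-regulated, with a median log2 change of -0.74. KO1 and KO2 lay below the WT pair for 22 of the 30, an order that 32.5% of all genes tested had. Cth, the enzyme that makes cysteine from cystathionine, was at 331 and 206 CPM in WT1 and WT2 and at 31.3 and 35.6 CPM in KO1 and KO2, a log2 change of -3.00 ± 0.27 (SE, adjusted p = 0.000896). Jdp2, a repressor of the AP-1 family, was at 58.3, 36.8, 7.33 and 8.15 CPM in WT1, WT2, KO1 and KO2, a log2 change of -2.62 (adjusted p = 0.00186). The secreted glycoprotein Stc2 and the stress cytokine Gdf15 were also down-regulated, with log2 changes of -2.03 and -1.88 (adjusted p = 0.0180 and 0.00765). The CARE letters were present in 8 of the 25 genes of this list with a window (32%). Of these 8, Jdp2 and Slc7a11 were down-regulated and 6 did not pass (Aars, Fgf21, Gars, Pycr1, Slc1a4 and Tars), with Pycr1 at a log2 change of 0.53.

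Among 15 other genes that control eIF2α and its exchange factor eIF2B, 2 rose and 2 fell, shares close to the 11% and 10.7% of all genes tested, with a median log2 change of 0.11. Eif2s2, which encodes the β subunit of eIF2, was at 559 and 461 CPM in WT1 and WT2 and at 1477 and 1232 CPM in KO1 and KO2, a log2 change of 1.41 (adjusted p = 0.00520). A pseudogene of Eif2s2, Gm9892, is 99.5% identical, had 704 and 658 reads in WT1 and WT2 and 2371 and 2263 reads in KO1 and KO2, and the counting could have split reads between them. Eif2b5, the catalytic subunit of eIF2B, rose by 0.93 on the log2 scale (adjusted p = 0.0106). Impact, an inhibitor of GCN2, and Dnajc3, an inhibitor of PERK, were down-regulated, with log2 changes of -1.01 and -0.73 (adjusted p = 0.0458 and 0.0331).

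Of 11 other ER sensors and membrane-bound factors tested, 0 were up-regulated and 3 down-regulated, beside 11% and 10.7% of all genes tested. Of the 11, 6 had a log2 change above 0 and 5 below, with a median of 0.08. The down-regulated genes were Creb3l1 and Creb3, transcription factors released from the membrane by cleavage, and Tmbim6, an inhibitor of cell death. Their log2 changes were -1.51, -1.37 and -0.98 (adjusted p = 0.00701, 0.0188 and 0.0111).

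Calls among the further folding, degradation and translocon genes were in both directions, beside 11% of all genes tested up-regulated and 10.7% down-regulated. Of 29 other chaperones and folding factors, 11 had a log2 change above 0 and 18 below, with a median of -0.09. By the test 5 rose and 3 fell. Those named by the rule were Ero1b, an oxidase that supplies disulfide isomerases, Uggt2, a folding sensor of glycoproteins, Creld1, a relative of Creld2, and Fkbp11, a prolyl isomerase, with log2 changes of 1.32, 1.30, 1.18 and 1.18 (adjusted p = 0.0363, 0.0115, 0.00894 and 0.0266). Of 28 other degradation genes, 2 rose and 4 fell, with a median of -0.16. Fbxo2, a ubiquitin ligase subunit for glycoproteins, was at 54.2 and 84.4 CPM in WT1 and WT2 and at 14.3 and 15.6 CPM in KO1 and KO2, a log2 change of -2.21 (adjusted p = 0.00245). Ngly1, which removes glycans from extracted proteins, and Marchf6, a membrane ubiquitin ligase, had log2 changes of -1.40 and -1.27 (adjusted p = 0.0117 and 0.00658), whereas Vcp, the ATPase that extracts substrates, rose by 0.97 (adjusted p = 0.0126). Ero1b and Vcp have copies, Gm18562 and Vcp-rs, that are 98.1% and 99% identical over the aligned bases, so their counts are uncertain. Gm18562 had 60 and 49 reads in WT1 and WT2 and 13 and 14 reads in KO1 and KO2, and Vcp-rs had 684, 967, 1449 and 1573 reads in WT1, WT2, KO1 and KO2. Of 24 genes of the translocon and of signal peptide processing, 1 rose and 3 fell, with a median of 0.0034. Sec11c of the signal peptidase, Sec63 of the translocon and Ssr2 of the translocon-associated complex fell by 1.09, 1.00 and 0.65 on the log2 scale (adjusted p = 0.0177, 0.00944 and 0.0489), and Ssr1 of the same complex rose by 0.59 (adjusted p = 0.0448).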

How the data were processed

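RNA-seq was analyzed in 4 libraries of E14 cells, grouped by the genotype in the labels. The authors mapped reads with HISAT2 (2.0.5 in the submitters' processing notes) and deposited raw read counts per gene, made with featureCounts 1.5.0-p3, and FPKM values computed from them by gene length. Strand setting and annotation are not given in the sources used here. The notes name mm10, but the gene coordinates of the tables differ from GRCm38 (4.07% of 52034 shared genes start within 1000 bases), so none are printed, and sequences carry the coordinates of RefSeq GRCm38.p6.

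Counts were fitted in R 4.3.3 with edgeR 4.0.16 (TMM, filterByExpr, quasi-likelihood test, Benjamini-Hochberg adjustment over 18157 genes), with a common biological coefficient of variation of 0.235. Alternatives were DESeq2 1.42.0, limma 3.58.1 (limma-trend on log2 of FPKM plus 1), other normalizations and filters, no fold threshold, a replicate block, chromosome medians removed and each library left out. The fit was tested on simulated data. Exact permutation of 2 against 2 libraries cannot go below p = 0.333 and was not used.

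The 38 genes and the further lists were chosen with earlier results of these data known. Named genes are all members, with values in every library for those called, those of the ATF4 branch and the largest changes per role, and per further list at most 4 called genes with the largest change and a mean count of at least 100. Ddit3 has a second entry with 0 reads, which was not used. Pseudogenes were matched by blastn 2.17.0+. Not every marker that was tested is reported here.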

Additional observations from a re-analysis of the deposited data

How the results depend on the processing

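The 12 down-regulated genes of the ATF4 branch were 11 to 12 under the settings that kept all libraries and 10 to 13 when 1 library was left out. Over all 38 genes, leaving out each library gave 2 to 10 up-regulated and 10 to 18 down-regulated genes. In the ER branch this gave 2 to 10 up-regulated and 0 to 5 down-regulated genes, in the further lists 3 to 15 and 11 to 40, and over all genes 826 to 3571 and 821 to 3384. With the replicate number as a block (replicate block) 3128 genes were up-regulated and 2994 down-regulated in place of 1999 and 1946, and of the 38 genes 10 and 17. The numbers name no shared source, and with 2 pairs whether they pair the libraries cannot be settled (correlation of the deviations of WT1 and KO1 from their group means 0.345). Without chromosome medians Ern1 was at -0.21 and Xbp1 at -0.22. Leaving out each library, the log2 fold change ranged from -0.76 to 0.19 for Atf6, from -0.066 to 0.081 for Eif2ak4, from -0.016 to 0.57 for Ern1 and from -0.61 to 0.041 for Creld2. A fit without 1 library leaves a lone library in its group, assumed to vary like the other pair. The cause of these changes was not tested. Asns had an adjusted p of 0.0427 with DESeq2 and 0.0408 with the replicate block but changed less than 1.5-fold in both.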
